A study of Mus musculus with 12 samples.

Results

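The genes described here carry the interleukin-4 (IL-4) signal in B cells or respond to it: the receptor chains *Il4ra* and *Il2rg*, the kinase *Jak1*, the transcription factor *Stat6*, the feedback inhibitors *Socs1* and *Cish*, and the response genes *Fcer2a*, *Il4i1*, *Ccl22* and *Nfil3*. They were picked by symbol for their known roles in the pathway, with earlier results of these data known. They make 10 of the 55536 features in the count table. Each was followed in the LPS-IL-4 cultures, in the LPS-BAFF-TGFβ cultures, and with and without *Pdap1*, which encodes PDGFA-associated protein 1.

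IL-4 binds the IL-4 receptor α chain, encoded by *Il4ra*, which in lymphocytes pairs with the common γ chain encoded by *Il2rg*. The kinases JAK1 and JAK3 at the chains phosphorylate the receptor and then STAT6, which forms dimers, enters the nucleus and binds palindromic sites of the TTCNNNNGAA type. In mouse B cells this pathway is known for raising the low-affinity IgE receptor CD23, MHC class II and the receptor α chain itself, and, with lipopolysaccharide (LPS), for class switch recombination (CSR) to IgG1 and IgE.

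RNA-seq was done on 3 control and 3 Pdap1-deficient mice of the C57BL/6 strain, and splenocytes of each mouse were grown for 48 h under both stimulations, which gave 12 libraries in 4 groups of 3. Both genotypes carried 1 Cre allele that is active in B cells, the deficient mice together with 2 floxed *Pdap1* alleles, so that the controls share the Cre and cells without Cre activity keep an intact *Pdap1*. LPS at 5 µg/ml was in every culture. IL-4 at 5 ng/ml was added for switching to IgG1, and BAFF at 10 ng/ml with TGFβ at 2 ng/ml for switching to IgG2b. No culture held LPS alone, so in each comparison of the stimulations the presence of IL-4 and the absence of BAFF and TGFβ cannot be told apart. The labels also name CH12, a B lymphoma line, for every sample, while the study describes primary splenic B cells. Neither the age nor the sex of a given mouse is stated in the labels.

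The libraries held between 4579793 and 69500640 counts, and the deepest was the LPS-BAFF-TGFβ library of control mouse 1. There the top feature (*CT010467.1*) held 3.38% of the counts. In the LPS-BAFF-TGFβ library of deficient mouse 1 the top feature (*Lars2*) held 9.90%, and in the other libraries the top feature held at most 1.96%. *Pdap1* itself was at 94.0 ± 3.33 CPM (counts scaled to the library total; SD, n = 3) in control LPS-IL-4 cultures and 26.8 ± 3.31 in deficient ones, and 126 ± 63.4 against 25.1 ± 1.89 with LPS-BAFF-TGFβ. The floxed segment is exon 2, so reads from other exons of a deleted allele can still be counted. The study reports a near-complete loss of the protein, measured later in culture. The B cell markers *Ms4a1*, *Cd79b* and *Cd22* were detected throughout and were higher with LPS-IL-4 in both genotypes, with means of 1052 against 578, 677 against 262 and 303 against 142 CPM in deficient mice. *Cd79a* (149 against 159 CPM there) and *Pax5* (799 against 863 CPM) did not pass the test in either genotype. Markers of macrophages, monocytes and neutrophils (6 genes) summed to between 5.13 and 24.6 CPM in the control libraries, and in the deficient mice 1, 2 and 3 to 6.77, 270 and 33.4 in LPS-IL-4 cultures and to 11.5, 492 and 78.8 in those with LPS-BAFF-TGFβ. Pdap1-deficient mouse 2 thus stood apart in both cultures, and deficient mouse 3 was also above every control library. For many of the results that lean on mouse 2, values without it are given. *Xist* was at 718 to 1261 CPM in control mice 1 and 3 and deficient mouse 1 and at 0.989 to 8.47 CPM in the other 3 mice. In these bulk samples, fewer cells of a type and less RNA per cell cannot be told apart.

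Among the 300 bases around the annotated start sites of the 10 genes, only *Fcer2a* and *Cish* held a STAT-type palindrome. These stretches are shown because *Fcer2a* differed by stimulation and by genotype and *Cish* had the largest fold between the stimulations, and because STAT proteins are known to bind palindromes of this kind. The letters are from RefSeq promoter windows of GRCm38.p6, which are 300 bases long and begin 250 bases before the start base, counted as 0. The sequence of *Fcer2a* lies on the minus strand at chr8:3691010-3691039, at -178 to -149 from the start site of the second of its 3 windows, and capitals mark the match to TTCNNNNGAA. That of *Cish* lies on the plus strand at chr9:107296654-107296683, at -5 to 24, and capitals mark 2 matches to TTCNNNGAA, at 0 and 11.
Fcer2a: agagggtgaaTTCCCAAGAAgggccaggag
Cish: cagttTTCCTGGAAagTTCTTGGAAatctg
Of 32851 such windows, 6.95% held TTCNNNNGAA, 8.30% held TTCNNNGAA and 14.6% held either. Both motifs read the same on the 2 strands. In all, 12 windows covered the 10 genes, and 10 of them held neither.

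The windows of *Nfil3*, with the largest fold after *Cish*, and of *Ccl22*, which was lower with LPS-IL-4, are shown for contrast, in the part that precedes every annotated transcript. *Nfil3* is on the minus strand at chr13:52981074-52981289 (-250 to -35), and *Ccl22* on the plus strand at chr8:94745434-94745589 (-250 to -95).
Nfil3: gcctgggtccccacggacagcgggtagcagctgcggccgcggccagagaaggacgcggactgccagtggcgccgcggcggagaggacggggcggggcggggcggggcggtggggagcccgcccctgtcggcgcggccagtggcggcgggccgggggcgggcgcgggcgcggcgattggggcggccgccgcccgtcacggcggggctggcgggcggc
Ccl22: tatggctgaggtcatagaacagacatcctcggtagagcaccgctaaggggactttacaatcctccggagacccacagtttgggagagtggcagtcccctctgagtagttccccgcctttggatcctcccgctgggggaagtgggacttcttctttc
The *Nfil3* stretch is made up largely of G and C. Neither stretch held a match to either motif in these letters.

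The first comparison asked how the genes differ between the stimulations in cells of the same genotype. In control mice, *Il4ra*, *Fcer2a*, *Il4i1*, *Socs1*, *Cish* and *Nfil3* were higher with LPS-IL-4, *Jak1* and *Ccl22* were lower, and *Stat6* and *Il2rg* did not pass the test. The 6 that rose did so between 2.80-fold for *Fcer2a* and 25.9-fold for *Nfil3*, with *Cish*, close to 0 in the LPS-BAFF-TGFβ cultures, beyond that range. In Pdap1-deficient mice the same 6 genes rose, *Ccl22* fell, and *Jak1*, *Stat6* and *Il2rg* did not pass. The test was edgeR's quasi-likelihood test over the 12 libraries, with Benjamini-Hochberg adjusted p under 0.05. Over all 15794 genes tested, 18.2% were called in control mice, 8.22% higher and 9.93% lower, against 6 and 2 of the 10. The 2 of 10 lower are of the order of the background share. In deficient mice the share was 13.6%, with 6.93% higher and 6.64% lower, against 6 and 1 of the 10. The 10 were picked as pathway genes with earlier results of these data known, so these shares describe the set and do not test it. The median log2 fold change was 1.58 over the 10 genes and -0.03 over all genes tested in control mice, and 1.37 and 0.00 in deficient mice. The stimulations did not overlap for 9 of the 10 genes in control and 7 in deficient mice, against 37.1% and 28.6% of all genes tested. Without both libraries of deficient mouse 2, the log2 fold change in deficient mice was 3.01 for *Il4ra*, 1.26 for *Fcer2a* and 4.08 for *Nfil3*, which still passed, and -0.35 for *Ccl22*, which no longer did (edgeR adjusted p = 0.0840), so that 0 of the 10 were then called lower.

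**Figure D1:**
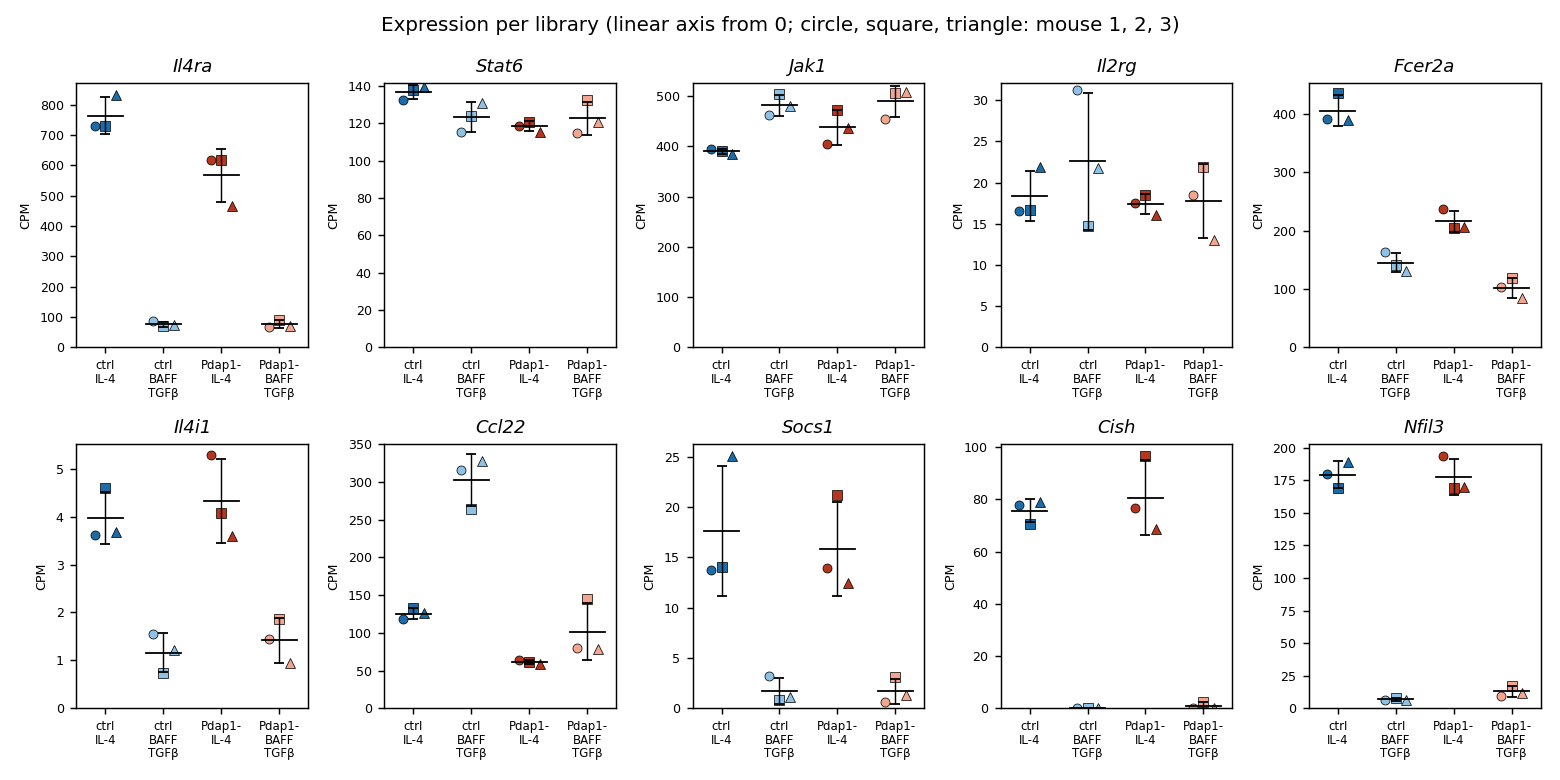
CPM of each of the 10 genes (vertical axis, linear from 0) in the 4 groups, with 1 symbol per library shaped by mouse, a bar at the mean and whiskers of 1 SD over 3 mice; ctrl is control and Pdap1- is Pdap1-deficient. *Il4ra*, *Fcer2a*, *Il4i1*, *Ccl22*, *Socs1*, *Cish* and *Nfil3* separate by stimulation in both genotypes. By genotype *Fcer2a* and *Ccl22* separate in both cultures, *Il4ra*, *Stat6* and *Jak1* with LPS-IL-4 and *Nfil3* with LPS-BAFF-TGFβ.

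*Il4ra* (ENSMUSG00000030748, chr7:125552120-125579474, plus strand) encodes the chain that binds IL-4. In control mice 1, 2 and 3 it was at 729, 730 and 834 CPM with LPS-IL-4 and at 85.9, 70.7 and 72.3 CPM with LPS-BAFF-TGFβ. In deficient mice it was at 617, 617 and 467 CPM against 66.8, 90.4 and 69.2 CPM. Every LPS-IL-4 library was thus above every LPS-BAFF-TGFβ library, in both genotypes. The log2 fold change was 3.32 (SE 0.16, edgeR adjusted p = 1.19e-08) in control and 2.91 (SE 0.15, adjusted p = 4.51e-08) in deficient mice.

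*Il2rg* (ENSMUSG00000031304, chrX:101264378-101268255, minus strand), the common γ chain shared with the receptors of IL-2, IL-7, IL-9, IL-15 and IL-21, did not pass the test in either genotype. Control levels were 16.6, 16.6 and 21.9 CPM with LPS-IL-4 and 31.2, 14.7 and 21.8 CPM with LPS-BAFF-TGFβ. Deficient levels were 17.5, 18.5 and 16.1 CPM against 18.5, 21.9 and 13.01 CPM. The groups overlapped in both genotypes, and the 95% interval of the log2 fold change was -0.84 to 0.21 in control and -0.56 to 0.52 in deficient mice.

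*Jak1* (ENSMUSG00000028530, chr4:101152367-101265282, minus strand), the kinase bound to the receptor α chain, was slightly lower with LPS-IL-4. The control libraries held 395, 390 and 385 CPM against 462, 504 and 480 CPM, with no overlap, and the log2 fold change was -0.31 (SE 0.09, edgeR adjusted p = 0.0354). The deficient libraries held 404, 473 and 436 CPM against 454, 506 and 508 CPM, and overlapped (log2 fold change -0.16, adjusted p = 0.328). The control call was lost when any library of a control mouse other than the LPS-BAFF-TGFβ library of mouse 1 was left out, with adjusted p of 0.102, 0.108 and 0.109 without LPS-IL-4 mouse 1, 2 and 3, and 0.118 and 0.103 without LPS-BAFF-TGFβ mouse 2 and 3.

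*Stat6* (ENSMUSG00000002147, chr10:127642986-127660957, plus strand) encodes the transcription factor of the pathway and had the smallest spread of log2 CPM over the 12 libraries among the 10 genes (SD 0.10). It was at 133, 138 and 139 CPM against 115, 124 and 131 CPM in control mice. The deficient mice had 119, 121 and 116 against 115, 132 and 121 CPM. The control groups did not overlap, and the deficient groups did. The interval of the log2 fold change was -0.04 to 0.34 in control and -0.24 to 0.14 in deficient mice.

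Both feedback inhibitors rose with LPS-IL-4 in both genotypes. *Socs1* (ENSMUSG00000038037, chr16:10782240-10785536, minus strand), whose protein binds JAKs and dampens their activity, was at 13.8, 14.0 and 25.1 CPM with LPS-IL-4 and at 3.18, 0.852 and 1.10 CPM with LPS-BAFF-TGFβ in control mice. Deficient mice had 13.9, 21.2 and 12.5 CPM against 0.645, 3.10 and 1.29 CPM. The stimulations did not overlap, and the log2 fold change was 3.14 (SE 0.52, edgeR adjusted p = 0.00137) in control and 3.32 (SE 0.58, adjusted p = 0.00262) in deficient mice.

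*Cish* (ENSMUSG00000032578, chr9:107296026-107302784, plus strand), another SOCS-family inhibitor and a known STAT5 target, was close to 0 with LPS-BAFF-TGFβ. It was at 77.7, 70.5 and 78.9 CPM with LPS-IL-4 in control mice and at 76.9, 96.4 and 68.6 CPM in deficient mice. With LPS-BAFF-TGFβ control mice 1, 2 and 3 had 13, 0 and 1 raw counts and deficient mice 1, 12 and 1, or 14 in each group (exact 95% Poisson interval 7.65 to 23.5, which covers counting error only). The 13 counts came from the deepest library. The 12 came from deficient mouse 2, whose myeloid markers were the highest. The log2 fold change was 8.73 (SE 0.60, edgeR adjusted p = 3.72e-06) in control and 6.75 (SE 0.56, adjusted p = 2.02e-05) in deficient mice, and the latter was 8.99 without both libraries of deficient mouse 2.

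*Nfil3* (ENSMUSG00000056749, chr13:52967209-52981073, minus strand) encodes a basic leucine zipper transcription factor known to be raised by IL-4 in B cells. It was at 180, 169 and 189 CPM against 6.06, 8.15 and 6.58 CPM in control mice. In deficient mice it was at 194, 169 and 170 CPM against 9.68, 17.3 and 11.8 CPM. The LPS-IL-4 levels of the genotypes lay over each other, while the low LPS-BAFF-TGFβ levels of the deficient mice all lay above those of the control mice. The log2 fold change was 4.72 (SE 0.19, edgeR adjusted p = 4.22e-09) in control and 3.79 (SE 0.18, adjusted p = 3.76e-08) in deficient mice.

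*Fcer2a* (ENSMUSG00000005540, chr8:3681737-3694175, minus strand) encodes CD23, the low-affinity IgE receptor of B cells. Control mice had 391, 436 and 390 CPM with LPS-IL-4 and 163, 140 and 131 CPM with LPS-BAFF-TGFβ. Deficient mice had 237, 204 and 206 CPM against 103, 119 and 84.1 CPM. Each of the 4 groups was apart from the other 3, in the order control LPS-IL-4, deficient LPS-IL-4, control LPS-BAFF-TGFβ, deficient LPS-BAFF-TGFβ. The log2 fold change between stimulations was 1.48 (SE 0.13, edgeR adjusted p = 2.33e-06) in control and 1.09 (SE 0.13, adjusted p = 5.74e-05) in deficient mice.

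*Il4i1* (ENSMUSG00000074141, chr7:44816387-44840809, plus strand), a secreted L-amino acid oxidase named for its induction by IL-4, was the lowest of the 10 genes per kilobase in the LPS-IL-4 cultures. Its levels were 3.62, 4.59 and 3.68 CPM against 1.54, 0.730 and 1.22 CPM in control mice. Those of deficient mice were 5.29, 4.07 and 3.60 against 1.45, 1.86 and 0.938 CPM. The groups did not overlap by stimulation in either genotype. The log2 fold change was 1.67 (SE 0.32, edgeR adjusted p = 0.00184) in control and 1.65 (SE 0.34, adjusted p = 0.00455) in deficient mice. *Il4i1* shares its strand and part of its region with *Nup62*, which had 24248 counts in all against 445 for *Il4i1*, so the split of reads between the genes is uncertain.

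*Ccl22* (ENSMUSG00000031779, chr8:94745590-94751699, plus strand) encodes a chemokine that draws CCR4-bearing T cells, and is known as an IL-4-induced gene in several cell types. Here it was lower with LPS-IL-4: 118, 133 and 126 CPM against 316, 264 and 328 CPM in control mice. The deficient libraries held 64.3, 61.4 and 58.9 against 79.8, 145 and 79.0 CPM. The groups did not overlap by stimulation in either genotype. The log2 fold change was -1.27 (SE 0.19, edgeR adjusted p = 0.000441) in control mice. In deficient mice it was -0.71 (SE 0.19, adjusted p = 0.0265), and it was -0.37 (adjusted p = 0.0560) without the LPS-BAFF-TGFβ library of deficient mouse 2, which holds the value of 145. Leaving out LPS-IL-4 mouse 1, 2 or 3 of that genotype also ended the call, with adjusted p of 0.0585, 0.0776 and 0.0951.

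*Ccl22* is also made by dendritic cells, whose markers (6 genes) summed to 22.6 to 33.8 CPM with LPS-IL-4 and 75.6 to 144 CPM with LPS-BAFF-TGFβ. Most of that sum was *Flt3*, at 12.5 to 22.8 CPM and 62.6 to 130 CPM. In control mice *Flt3*, *Xcr1* (0.809 against 2.76 CPM on average) and *Siglech* (0.0300 against 1.11 CPM) were called lower with LPS-IL-4, or 3 of the 5 markers tested, and in deficient mice 1 was, *Flt3*. Of all genes tested, 9.93% were called lower in control and 6.64% in deficient mice. *Clec9a* was at 0 in all 12 libraries, *Itgax* was at most 1.86 CPM in any library, and *Zbtb46*, at 7.06 to 11.7 CPM, did not pass. What part these cells had in the *Ccl22* levels was not tested.

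**Figure D2:**
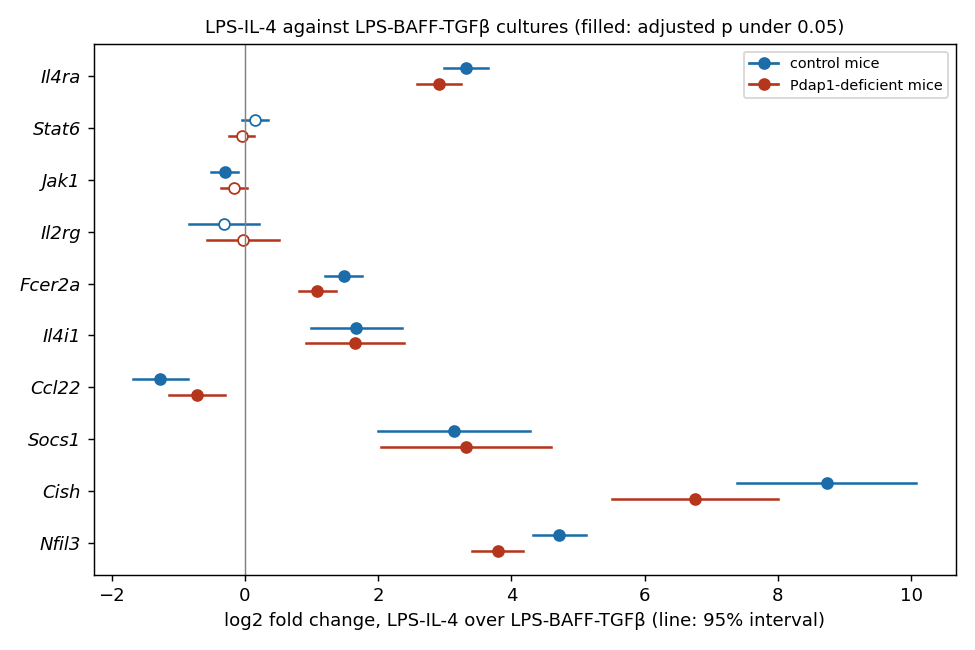
Log2 fold change of LPS-IL-4 over LPS-BAFF-TGFβ (horizontal axis) for the 10 genes in control and Pdap1-deficient mice, with 95% intervals as lines and filled points where the edgeR adjusted p was under 0.05. The 6 genes right of 0 with filled points rose in both genotypes, *Ccl22* lies left of 0 in both, and the intervals of *Il2rg* cross 0 in both.

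Per kilobase of merged exon, a scale that sets genes only roughly side by side, the order of the levels changed between stimulations. The merged length takes in the exons of every annotated transcript, 6419 bases for *Cish* and 2908 for *Socs1*. Ranks between genes are therefore approximate. In control LPS-IL-4 cultures *Fcer2a* (131 CPM per kilobase) and *Il4ra* (127) led and their ranges overlapped, followed by *Nfil3* (88.5), then *Ccl22* (54.1) and *Jak1* (54.0), which overlapped, then *Stat6* (31.1), *Cish* (11.8), *Il2rg* (7.69) and *Socs1* (6.06), the last pair overlapping, and *Il4i1* (0.971). In control LPS-BAFF-TGFβ cultures *Ccl22* led with 130 CPM per kilobase, before *Jak1* (66.7), *Fcer2a* (46.9), *Stat6* (28.0), *Il4ra* (12.7) and *Il2rg* (9.46), which overlapped, *Nfil3* (3.42), *Socs1* (0.588) and *Il4i1* (0.285), which overlapped, and *Cish* (0.0171). In deficient LPS-IL-4 cultures *Il4ra* (94.5) and *Nfil3* (87.6) overlapped at the top, *Fcer2a* (69.7) came after them, and *Ccl22* (26.5) stood beside *Stat6* (26.9), with overlapping ranges. *Jak1* (67.7) led in deficient LPS-BAFF-TGFβ cultures, ahead of *Ccl22* (43.6) and *Fcer2a* (32.9), whose ranges overlapped.

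The second comparison asked whether loss of *Pdap1* alters these genes within a stimulation. With LPS-IL-4, *Fcer2a* and *Ccl22* fell in Pdap1-deficient cultures, to 53.2% and 49.0% of the control mean, and the other 8 genes did not pass the test. The receptor chain *Il4ra* was at 74.2% of the control mean without passing, and *Cish*, *Nfil3* and *Socs1*, among the genes that rose most with LPS-IL-4, overlapped between the genotypes. Of the 10 genes, 2 were called lower and 0 higher, against 2.12% and 2.79%, or 4.92% in all, of the 15074 genes tested in the 6 libraries. The median log2 fold change was -0.12 over the 10 genes and 0.02 over all genes. The groups did not overlap for 5 of the 10 genes, against 31.7% of all genes tested.

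The fall of *Fcer2a* was -0.92 on the log2 scale (SE 0.11, edgeR adjusted p = 0.00214), and its lowest control library (390 CPM) lay above its highest deficient library (237 CPM). *Ccl22* changed by -1.04 (SE 0.10, adjusted p = 0.000642), with its lowest control library at 118 CPM and its highest deficient library at 64.3 CPM. Both calls held in each of the alternatives tried, among them every left-out library. Without deficient mouse 2, the mouse with the high myeloid markers, the log2 fold changes were -0.87 for *Fcer2a* and -1.02 for *Ccl22*.

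Among markers of plasmablasts and plasma cells (5 genes), *Prdm1* differed in this comparison. The sum of the 5 was 329 to 364 CPM in control and 443 to 508 CPM in deficient LPS-IL-4 cultures, and 384 to 414 against 359 to 417 CPM with LPS-BAFF-TGFβ. *Irf4* made up most of that sum. *Prdm1*, which encodes the plasma cell transcription factor Blimp-1, was at 18.2, 14.1 and 20.0 CPM in control LPS-IL-4 libraries and at 50.6, 65.1 and 71.2 CPM in deficient ones (log2 fold change 1.82, SE 0.16, edgeR adjusted p = 0.000323). It was the 1 marker of the 5 that passed, with 0 lower, against 2.79% higher and 2.12% lower of all genes tested. *Sdc1* was at 8.44 against 5.02 CPM on average and *Irf4* at 297 against 367 CPM, both without overlap but not past the threshold (edgeR adjusted p = 0.0858 and 0.150), and *Jchain* and *Mzb1* overlapped between the genotypes. The part of these markers in the *Fcer2a* and *Ccl22* values was not tested.

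For *Il4ra* the log2 fold change with LPS-IL-4 was -0.44 (SE 0.13, interval -0.73 to -0.15, edgeR adjusted p = 0.0801), and all 3 deficient libraries, at 467 to 617 CPM, were below the control libraries, at 729 to 834 CPM. The call depended on the setting: the adjusted p was 0.0109 with the Wald test of DESeq2, 0.0142 with no filter on low counts, and 0.0458 or 0.0473 without deficient mouse 1 or 2. These were the 4 of 15 alternatives in which *Il4ra* passed, while in the other 11 the edgeR adjusted p reached up to 0.260. *Stat6* had a log2 fold change of -0.22 (adjusted p = 0.178) and *Jak1* of 0.16 (adjusted p = 0.373), and for both the groups did not overlap. *Il2rg* was at -0.09 (interval -0.41 to 0.24).

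The inhibitors and the remaining response genes showed no call with LPS-IL-4, and for *Cish* and *Nfil3* the intervals were narrow. *Cish* had a log2 fold change of 0.08 (interval -0.20 to 0.36, edgeR adjusted p = 0.739) and *Nfil3* of -0.02 (interval -0.25 to 0.20, adjusted p = 0.915). The spread was wider for *Socs1*, at -0.16 (interval -0.77 to 0.46), and for *Il4i1*, at 0.12 (interval -0.41 to 0.65).

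**Figure D3:**
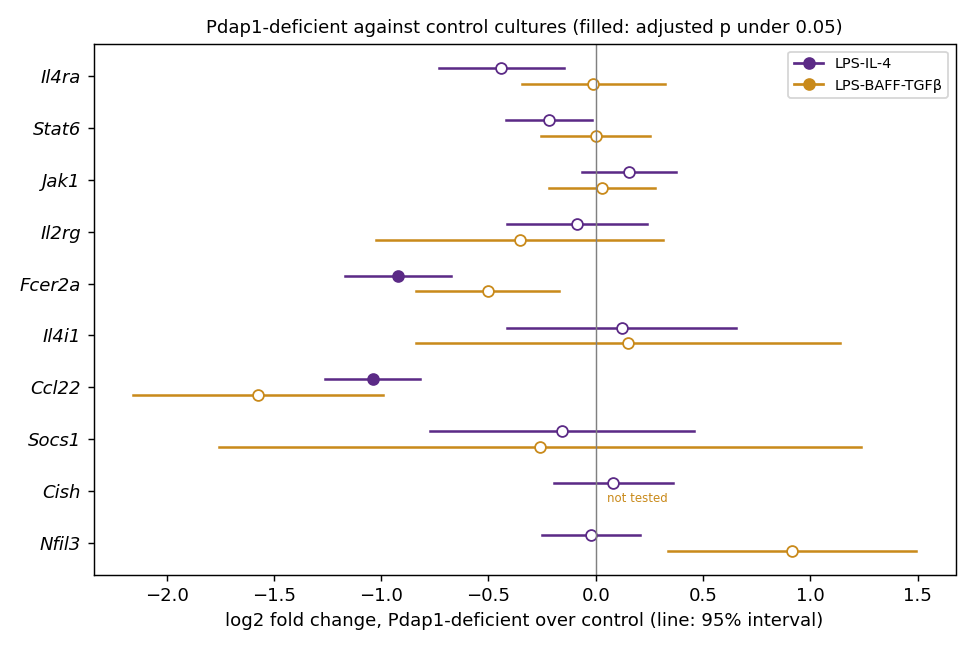
Log2 fold change of Pdap1-deficient over control (horizontal axis) for the 10 genes in each stimulation, with 95% intervals as lines and filled points where the edgeR adjusted p was under 0.05. Filled points are seen for *Fcer2a* (-0.92) and *Ccl22* (-1.04) with LPS-IL-4, and *Cish* was not tested with LPS-BAFF-TGFβ.

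With LPS-BAFF-TGFβ, 0 of the 9 genes tested by edgeR passed the threshold, while *Cish* was too low to be tested. Of all 14079 genes tested, 0.462% were called. At an unadjusted p under 0.05 there were 3 of the 9, and the Wald test of DESeq2 called 1, *Ccl22*. The groups did not overlap for 3 genes, against 18.6% of all genes tested.

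These 3 were *Ccl22*, *Fcer2a* and *Nfil3*. *Ccl22* was at 33.5% of the control mean with a log2 fold change of -1.57 (SE 0.25, edgeR adjusted p = 0.0615). Its call depended on the setting: without deficient mouse 2 it was -1.95 (adjusted p = 0.00256), with no filter on low counts the adjusted p was 0.000248, in a fit of all 12 libraries 0.00103, and with DESeq2 5.62e-10. In the other 11 of 15 alternatives *Ccl22* did not pass, with an edgeR adjusted p of up to 0.305. *Fcer2a* was at 70.2% of the control mean (log2 fold change -0.50, adjusted p = 0.309), with an adjusted p of 0.0246 where no filter was applied. It did not pass in the other 14 of 15 alternatives, where the adjusted p reached up to 0.738.

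*Nfil3* was higher in each deficient library, at 9.68 to 17.3 CPM against 6.06 to 8.15 CPM (log2 fold change 0.91, SE 0.26, edgeR adjusted p = 0.289; 0.0349 in a fit of all 12 libraries). The highest value, 17.3 CPM, came from deficient mouse 2, where the summed myeloid markers were 492 CPM; without that library the log2 fold change was 0.63 (adjusted p = 0.778). *Il4ra* (-0.01, interval -0.34 to 0.32), *Stat6* (0.00, interval -0.25 to 0.25) and *Jak1* (0.03, interval -0.22 to 0.28) lay near 0. *Il2rg* (-0.36), *Il4i1* (0.15) and *Socs1* (-0.26) had wide intervals, of which the widest was -1.75 to 1.24 for *Socs1*.

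The third comparison asked whether the step from LPS-BAFF-TGFβ to LPS-IL-4 itself differed between genotypes, with a term for that difference in the 12-library fit. Of the 10 genes 0 passed, against 0% of the 15794 genes tested by edgeR, and the smallest adjusted p of any gene was 0.217. The term has little power: in simulated data it recovered 18% of genes with a true log2 size of 1 and 68% at 2. The absence of calls thus does not show that the step was alike in the genotypes. At an unadjusted p under 0.05 there were 755 genes in all and 2 of the 10, *Nfil3* and *Fcer2a*; the Wald test of DESeq2 called 6 genes, 0 of them among the 10. *Nfil3* had the smallest unadjusted p of the 10, with a term of -0.93 (interval -1.44 to -0.41, adjusted p = 0.980), and without both libraries of deficient mouse 2 the term was -0.65.

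The ratio of the cultures within a mouse shows the same values without a model. For *Nfil3* the log2 ratio of LPS-IL-4 to LPS-BAFF-TGFβ was 4.89, 4.37 and 4.85 in control mice 1, 2 and 3, against 4.32, 3.29 and 3.84 in deficient mice, and the genotypes did not overlap. For *Fcer2a* it was 1.26, 1.63 and 1.57 in control mice against 1.21, 0.78 and 1.29 in deficient mice, and the genotypes overlapped. For *Ccl22* it was -1.42, -0.99 and -1.38 in control mice against -0.31, -1.24 and -0.42 in deficient mice, with deficient mouse 2 inside the control range. For *Il4ra* it was 3.08, 3.37 and 3.53 against 3.21, 2.77 and 2.75, with overlap.

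The terms of the other genes had wide intervals. That of *Fcer2a* was -0.40 (interval -0.79 to -0.01), that of *Il4ra* -0.41 (interval -0.84 to 0.03) and that of *Ccl22* 0.56 (interval -0.03 to 1.14). For *Cish* it was -1.98 (interval -4.32 to 0.36), and it turned to 0.25 without both libraries of deficient mouse 2. An exact two-sided permutation test of 3 mice against 3 cannot give a p below 0.1, so no test of single genes outside the fit over all genes was made.

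The pathway also holds genes beyond these 10, here grouped by hand into lists. Their counts are to be read against the shares over all genes tested, 8.22% higher and 9.93% lower in control and 6.93% and 6.64% in deficient mice, and 1 lower of about 10 genes is at that level. Of 11 other receptor chains and Janus kinases, 10 were tested, and in both genotypes 3 were higher and 1 lower with LPS-IL-4. *Il2ra*, the IL-2 receptor α chain, rose by 2.56 on the log2 scale (edgeR adjusted p = 1.30e-05) in control and by 1.63 (adjusted p = 0.000627) in deficient mice, or by 1.30 without both libraries of deficient mouse 2. *Il9r*, the IL-9 receptor, was at 10.4 ± 2.99 CPM with LPS-IL-4 and 134 ± 10.7 CPM with LPS-BAFF-TGFβ in control mice (log2 fold change -3.68, adjusted p = 3.87e-08) and changed by -3.25 in deficient mice (adjusted p = 1.23e-07). *Il15ra* rose by 0.91 and 1.17 (adjusted p = 0.00393 and 0.00100). *Il2rb* passed in both (adjusted p = 0.0231 and 0.0248), but lost the call in control mice without LPS-IL-4 mouse 1 or 3 or LPS-BAFF-TGFβ mouse 1 or 2 (0.0520, 0.0896, 0.0730 and 0.0607), and in deficient mice without LPS-IL-4 mouse 2 or LPS-BAFF-TGFβ mouse 1 or 3 (0.0709, 0.109 and 0.111). Without both libraries of deficient mouse 2 its edgeR adjusted p in deficient mice was 0.0563.

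Of 13 adaptors, phosphatases and other SOCS proteins, 12 were tested, and 2 rose and 1 fell in each genotype. *Socs2*, a relative of *Cish*, rose from 1.82 ± 0.44 to 62.9 ± 5.70 CPM in control mice (log2 fold change 5.22, edgeR adjusted p = 6.70e-07) and by 4.71 on the log2 scale in deficient mice (adjusted p = 7.56e-06). *Ptpn6*, the phosphatase SHP-1, changed by -0.62 and -0.55 (adjusted p = 0.000747 and 0.00248). The other gene that rose was *Socs3* in control mice (adjusted p = 0.0367, and between 0.0667 and 0.103 with any control library left out) and the adaptor *Irs2* in deficient mice (adjusted p = 0.0118, and 0.0666 without LPS-BAFF-TGFβ mouse 3).

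Of 10 other STAT proteins and cofactors, all were tested, with 4 higher and 2 lower in control and 5 higher and 2 lower in deficient mice. *Stat5a* rose by 0.89 and 0.81 (edgeR adjusted p = 7.03e-06 and 2.57e-05), *Stat3* by 0.67 and 0.51 (0.000597 and 0.00628), and *Parp14*, a coactivator of STAT6, by 1.34 and 1.36 (0.00179 and 0.00204). *Stat4* was also higher in both genotypes. It lost the call in control mice without both libraries of mouse 1 (0.0839), and in 1 alternative in deficient mice. *Stat2* was called in deficient mice only (adjusted p = 0.0225, but 0.0883 and 0.0899 without LPS-BAFF-TGFβ mouse 1 and 3). Without both libraries of deficient mouse 2 its log2 fold change there was 1.27 (edgeR adjusted p = 0.00153). In control mice *Stat2* did not pass, but was at 77.3 against 36.9 CPM on average, without overlap. *Stat5b* and *Ncoa1* were lower in both, with log2 fold changes of -0.42 and -0.44 in control and -0.34 and -0.38 in deficient mice. In deficient mice *Stat5b* did not pass without LPS-IL-4 mouse 3 (0.0925) or LPS-BAFF-TGFβ mouse 1 or 2 (0.0723 and 0.0504), and *Ncoa1* without LPS-IL-4 mouse 1 or 3 (0.0800 and 0.125) or LPS-BAFF-TGFβ mouse 1 or 3 (0.189 and 0.0751). In control mice *Ncoa1* did not pass without LPS-BAFF-TGFβ mouse 3 (0.0537).

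Of 10 other genes known to be induced by IL-4 in B cells, 9 were tested, and 6 rose and 1 fell in each genotype. *Ighg1* and *Ighe*, the constant regions to which B cells switch with IL-4, were up in control mice, by 7.18 and 5.004 on the log2 scale (edgeR adjusted p = 5.43e-08 and 4.06e-07) and by 5.54 and 3.62 in deficient mice (4.89e-07 and 8.32e-05). The MHC class II genes *H2-Aa* and *H2-Eb1* rose by 0.54 and 0.65 in control mice and by 0.51 and 0.75 in deficient mice. *H2-Ab1*, also of class II, did not pass in either genotype. Its means were 855 against 798 CPM in control mice, with overlap, and 778 against 538 CPM in deficient mice, without overlap. *Cd86* did not pass either. It was lower with LPS-IL-4 in control mice, at 70.3 against 92.9 CPM without overlap, and at 122 against 114 CPM in deficient mice, with overlap. *Bcl2l1*, which encodes the survival protein Bcl-xL, rose by 1.55 and 1.62, and *Xbp1*, a transcription factor of the secretory pathway, by 1.56 and 1.61. *Bcl6*, a transcriptional repressor of germinal centre B cells, fell in both genotypes (adjusted p = 0.0221 and 0.0257), and its call was lost without control LPS-IL-4 mouse 1 or 2 or LPS-BAFF-TGFβ mouse 3 (0.0988, 0.0952 and 0.0601), and in deficient mice without LPS-IL-4 mouse 1 or 3 or LPS-BAFF-TGFβ mouse 1 or 2 (0.0794, 0.0625, 0.0858 and 0.0750). *Ccl17*, the gene for the other CCR4 ligand beside *Ccl22*, was filtered out at 0 to 1.86 CPM.

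**Figure D4:**
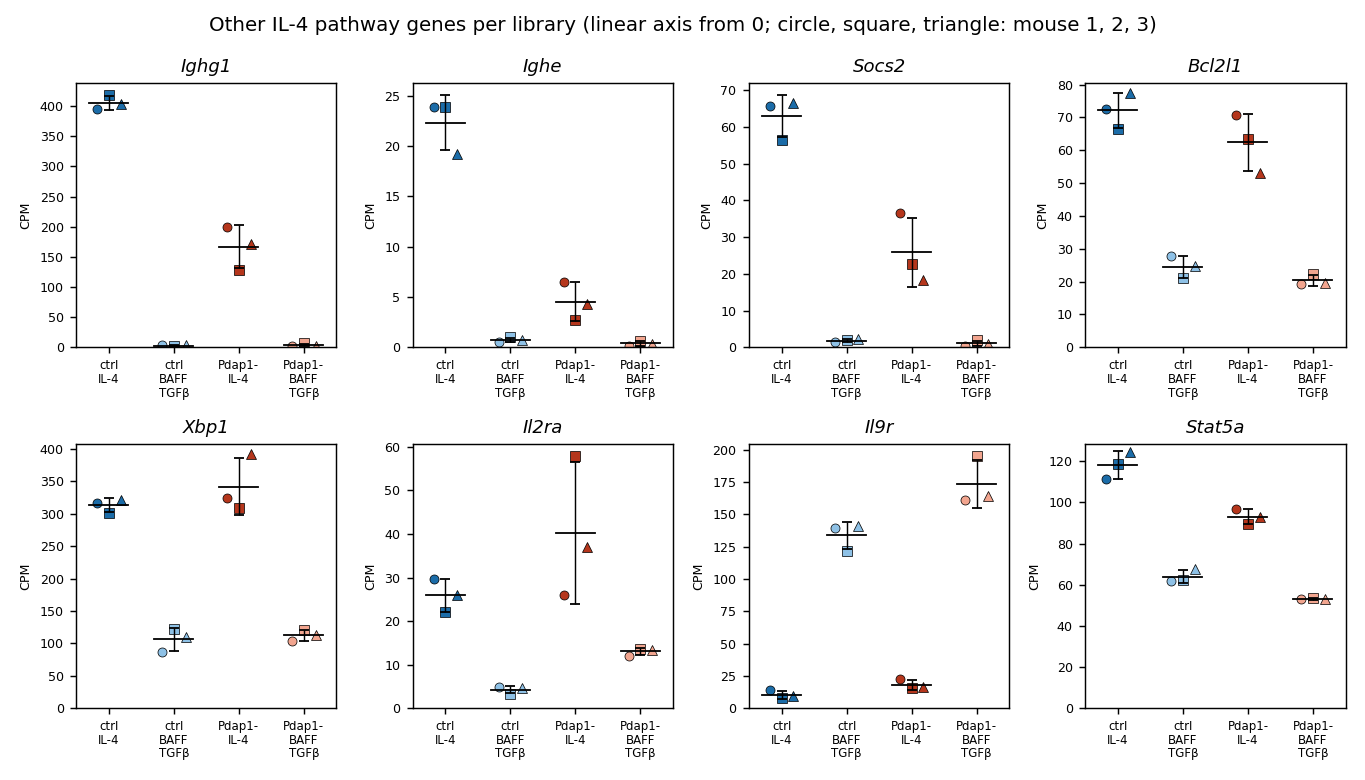
CPM (vertical axis, linear from 0) of 8 other genes of the pathway in the 4 groups, with 1 symbol per library shaped by mouse, a bar at the mean and whiskers of 1 SD over 3 mice. *Ighg1*, *Ighe* and *Socs2* are high with LPS-IL-4 and lower there in Pdap1-deficient than in control mice. *Bcl2l1* and *Xbp1* separate by stimulation, and *Stat5a* by stimulation and by genotype. *Il9r* is high with LPS-BAFF-TGFβ and is higher in deficient than in control mice in each culture. Deficient mouse 2 is the highest for *Il2ra*.

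With loss of *Pdap1* in LPS-IL-4 cultures, 0 of 10 receptor chains and kinases tested, 2 of 12 adaptors and inhibitors, 0 of 10 STAT proteins and cofactors and 2 of 9 other B cell response genes passed, against 4.92% of all genes tested. *Ighg1* was at 395, 418 and 404 CPM in control mice and at 200, 129 and 172 CPM in deficient mice (log2 fold change -1.29, SE 0.15, edgeR adjusted p = 0.00211). *Ighe* was at 23.9, 23.9 and 19.2 CPM against 6.54, 2.74 and 4.34 CPM (-2.31, SE 0.28, adjusted p = 0.00357). In neither gene did the genotypes overlap. *Stat5a* did not pass but was lower in every deficient library, at 89.5 to 96.6 against 111 to 125 CPM in LPS-IL-4 cultures (-0.36 on the log2 scale, edgeR adjusted p = 0.0639) and at 52.9 to 53.5 against 61.9 to 67.7 CPM with LPS-BAFF-TGFβ (-0.26, adjusted p = 0.447).

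*Socs2* was at 65.8, 56.3 and 66.5 CPM in control and at 36.4, 22.7 and 18.4 CPM in deficient LPS-IL-4 cultures (log2 fold change -1.28, SE 0.23, edgeR adjusted p = 0.0268). Its call was lost without control mouse 1, 2 or 3 (adjusted p = 0.119, 0.110 and 0.138) or deficient mouse 2 (0.134). *Irs2* rose from 6.01 to 14.6 CPM (1.27, SE 0.30, adjusted p = 0.0428), and was not called without control mouse 1, 2 or 3 (0.126, 0.124 and 0.135) or deficient mouse 3 (0.118).

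With LPS-BAFF-TGFβ, 1 of 9 receptor chains and kinases tested passed, and 0 of 12 adaptors, 0 of 10 STAT proteins and 0 of 8 other response genes did, against 0.462% of all genes tested. That gene was *Il2ra*, at 4.93, 3.28 and 4.63 CPM in control and 12.1, 13.6 and 13.5 CPM in deficient mice (log2 fold change 1.60, SE 0.22, edgeR adjusted p = 0.0148). The call was lost without control mouse 3 (adjusted p = 0.106) or deficient mouse 1, 2 or 3 (0.0797, 0.0913 and 0.129).

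The culture used for comparison was also described by 8 genes known to be induced by TGFβ. Of 7 tested, 3 were lower with LPS-IL-4 in both genotypes, against 9.93% and 6.64% of all genes in control and deficient mice. The tested genes that did not pass were *Ski* (17.0 against 18.6 CPM in control mice), *Tgif1* (53.8 against 55.8 CPM), *Tgfbi* and *Igha*. *Ighg2b*, the constant region to which TGFβ directs switching, was at 9.07 CPM with LPS-IL-4 and 597 CPM with LPS-BAFF-TGFβ in control mice, and *Smad7* and *Skil*, both feedback inhibitors of TGFβ signalling, changed by -1.73 and -1.05 on the log2 scale. Of 10 genes known to be induced by IL-4 in macrophages, 5 were tested by edgeR and 0 passed in either genotype, with 0 at an unadjusted p under 0.05. In deficient mouse 2, which had the highest myeloid markers, *Chil3* of this list was at 152 CPM with LPS-IL-4 and 34.1 CPM with LPS-BAFF-TGFβ. It was at most 4.34 CPM in any library of the other mice.

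The genes whose log2 CPM was most like that of a member over the 12 libraries are given as a description; the libraries share the stimulation, the mouse and the depth. For *Il4ra* they were *Prag1*, *Rab35* and *Ighg1* (Pearson's r from 0.992 to 0.995), and for *Fcer2a* *Car2*, *Kcnk5* and *Ighe* (0.970 to 0.986). For *Nfil3* they were *Sept3*, *Gm17767* and *Rnf19b* (0.994 to 0.996), and for *Cish* *Lifr*, *Gm17767* and *Zfp608* (0.991 to 0.995). *Socs1* was most like *Snx8*, *Sh3bp2* and *Gadd45g* (0.979 to 0.982), and *Il4i1* most like *Sys1*, *Thy1* and *Myo1g* (0.968 to 0.979). *Ccl22* had *Rnpep*, *Clk2* and *Gpx1* (0.929 to 0.937), *Jak1* had *Kit*, *Lrrk2* and *Nhs* (0.967 to 0.969), *Il2rg* had *Tmem160*, *H3f3a* and *Gm14539* (0.943 to 0.964), and *Stat6* had *Gm16853*, *Gm13231* and *Vac14* (0.854 to 0.875).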

How the data were processed

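The counts are as deposited by the authors: reads trimmed with Trim Galore 0.6.1, mapped to GRCm38 with STAR 2.6 and counted per Ensembl gene with HTSeq 0.9.1, per the submitters' processing notes and the study's methods, without normalization. The strandedness of counting is not given in the sources used here. A second deposited table, of counts divided by a size factor per library, was not used. GENCODE M21 named all 55536 features and all 106 list symbols. Groups came from the labels, doses and time from the study's methods.

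edgeR 4.0.16 (R 4.3.3) was run after filterByExpr (minimum count 10) and TMM scaling, with its robust quasi-likelihood test and Benjamini-Hochberg adjustment over all genes tested. Stimulations and the genotype by stimulation term were fitted on 12 libraries, genotypes on the 6 libraries of a stimulation. CPM used TMM-scaled totals, and CPM per kilobase the merged exon length. Alternatives included DESeq2 1.42.0. The steps were tested on simulated data. Named genes are the 10, the genes of the 6 other pathway lists past the threshold in any comparison, those filtered out (by count or name), *Pdap1*, and the 3 genes most correlated with each of the 10. Marker genes, *H2-Ab1*, *Cd86*, *Chil3*, *Ski*, *Tgif1*, *Tgfbi*, *Igha*, *Lars2*, *CT010467.1*, *Xist* and *Nup62* were named after their values were seen. The members and lists were chosen with earlier results of these data known. An item is not reported here.

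Replicates are separate mice. The 2 cultures of a mouse are paired by the series description, and their deviations from the group means correlated at -0.18, 0.34 and -0.02 in control and 0.58, 0.62 and 0.29 in deficient mice. Control and deficient mice share only a number. The median biological coefficient of variation was 19.2% over the 12 libraries, 17.2% for LPS-IL-4, 20.9% for LPS-BAFF-TGFβ. No library was a copy of another. Figures were drawn with matplotlib 3.10.9.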

Additional observations from a re-analysis of the deposited data

How the results depend on the processing

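Of 822 values of the 10 genes under alternatives, 748 kept their direction and side of the threshold, 14 lost the call, 10 gained it and 50 turned direction; none of the 50 belonged to a called value. For other list genes 770 of 836 kept the call and 66 lost it. The causes were not tested, save that a minimum of 10 counts in every library removed *Il4i1*, *Socs1* and *Cish*, so that 3 of the 10 genes were called higher in each genotype. With mouse as a block for the 2 cultures, 3409 and 2492 genes were called by stimulation and 0 by the term; with the mouse number as a block between genotypes, where same-numbered mice correlated at only -0.21 to 0.10, 641 and 48. The block changed no call of the 10 genes, and ended that of *Irs2* with LPS-IL-4 (adjusted p = 0.0858).

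In control mice *Jak1* also lost its call with no filter (adjusted p = 0.168), with thinning to the smallest library (0.0595) and without both libraries of control mouse 1 (0.0636), which left 1 gene called lower. In deficient mice *Ccl22* lost it in a fit of 6 libraries (0.110) and without both libraries of mouse 2 (0.0840), which left 0. Genes called for Pdap1 loss with LPS-IL-4 numbered 741, and 1217 with DESeq2, 1694 with no filter and 173 with *Xist* level as a term. With LPS-BAFF-TGFβ they numbered 65, and 172, 257 and 42 in the same order and 133 in a fit of 12 libraries; of the 10 genes, 1 was then called lower with DESeq2, 2 with no filter, and 1 lower and 1 higher in the fit of 12 libraries. The term called 6 genes with DESeq2 and 1 with no filter. Leaving out each library in turn gave 1906 to 2943 genes by stimulation in control and 1407 to 2131 in deficient mice, 69 (without control mouse 2) to 1759 (without deficient mouse 1) for Pdap1 loss with LPS-IL-4, 19 to 116 with LPS-BAFF-TGFβ, and 0 to 1 for the term; of the 10 genes, 1 to 2 and 0 to 1 were lower by stimulation in control and deficient mice, 2 to 3 lower with LPS-IL-4 and 0 to 1 with LPS-BAFF-TGFβ.

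Values below the threshold that turned direction were, on the log2 scale, *Il2rg* in control mice (0.079 without both libraries of control mouse 1), and in deficient mice *Stat6* (0.0051) and *Il2rg* (0.11) without both of mouse 2 and *Il2rg* with no filter (0.0029). For Pdap1 loss they were *Nfil3* with LPS-IL-4 and *Jak1* with LPS-BAFF-TGFβ with *Xist* as a term (0.030 and -0.017), *Jak1* with no filter (-0.035) and *Stat6* with 10 counts in every library (0.00089). For the term they were *Il2rg* (-0.10) and *Socs1* (-0.99) without control mouse 1, *Socs1* thinned (-0.14), *Il4i1* with no filter (0.00054), and *Il4i1* (0.28) and *Cish* (0.25) without deficient mouse 2. With each library left out in turn, the ranges that crossed 0 were -0.53 to 0.0081 for *Il2rg* in control, -0.087 to 0.0064 for *Stat6* and -0.21 to 0.15 for *Il2rg* in deficient mice. For Pdap1 loss with LPS-IL-4 they were -0.17 to 0.043 (*Il2rg*), -0.068 to 0.23 (*Il4i1*), -0.40 to 0.17 (*Socs1*), -0.050 to 0.17 (*Cish*) and -0.11 to 0.025 (*Nfil3*), and with LPS-BAFF-TGFβ -0.18 to 0.074 (*Il4ra*), -0.082 to 0.044 (*Stat6*), -0.019 to 0.080 (*Jak1*), -0.086 to 0.48 (*Il4i1*) and -0.95 to 0.70 (*Socs1*). For the term they were -0.021 to 0.51 (*Il2rg*), -0.35 to 0.20 (*Il4i1*), -0.83 to 0.84 (*Socs1*) and -3.24 to 0.40 (*Cish*). The *Xist* term and the settings that leave out both libraries of a mouse were chosen after seeing the data. Depth limits *Cish*, *Il4i1* and *Socs1* in the LPS-BAFF-TGFβ libraries.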
